A study of Mus with 4 samples.

Results

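Semaphorins, ephrins, Slits and netrins are guidance cues, and plexins, neuropilins, Eph receptors, Robo receptors and Unc5 receptors read them at the cell surface. Their transcript expression was examined in a murine podocyte cell line that overexpressed the active form of OASIS. The members were chosen by gene symbol alone, as every probe of the array annotated to a semaphorin, plexin, neuropilin, Slit, Robo, Eph, ephrin, netrin or Unc5 gene, whatever its value. This gave 165 of the 56605 probes on the array, for 70 of its 26893 named genes. Of these, 35 genes encode ligands and 33 encode receptors, and the remaining 2 are antisense transcripts of Plxna4.

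These families were first studied in axon guidance, where a cue that binds its receptor changes the actin cytoskeleton and the adhesion of the growing tip through small GTPases. Class 3 semaphorins, Slits and netrins are secreted, whereas the other semaphorins and the ephrins are attached to the membrane, so that ephrins and Eph receptors signal between touching cells and in both directions. In the kidney glomerulus, podocytes make semaphorin, ephrin and Slit pathway proteins, and Robo2 and ephrin-B1 have been placed at the slit diaphragm, the junction between podocyte foot processes.

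Both groups were an immortalized murine podocyte line, differentiated for 10 to 14 days at 37 °C without interferon-γ. The Venus group (n = 2) received a lentivirus for Venus, a fluorescent protein used as the control. The OASIS group (n = 2) received a lentivirus for the active, N-terminal part of OASIS, a transcription factor encoded by Creb3l1 that is normally released from the endoplasmic reticulum membrane by cleavage. Cells of both groups were infected for 24 h at a multiplicity of infection of 200 to 500 with 8 µg/mL polybrene and 10% serum, and total RNA was taken at 48 h. According to the methods, the inserts were carried by a pCSII-EF vector, so that expression was driven by the vector and not by a promoter specific to podocytes. The labels do not say whether the 2 samples of a group came from separate cultures, so that p-values measure only the spread between these samples, which may be technical. RNA was measured in bulk, and fewer cells that express a gene cannot be told apart from less RNA per cell.

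One-colour Agilent arrays were used, 1 for each sample, on a single slide. Values are normalised log2 intensities, that is the log2 of the background-corrected spot intensity minus the 75th percentile of these log2 values on the same array, so that 0 is the level of that percentile. In what follows, the pair of values with Venus and the pair with OASIS are those of samples 1 and 2 of each group, in that order. Arrays of a group correlated over probes with Pearson's r of 0.997 (Venus) and 0.995 (OASIS), and arrays from different groups with 0.973 to 0.978. Precision is limited by the number of arrays: with 2 per group, the lowest two-sided p that exact permutation allows is 0.333, so that the adjusted p-values of limma draw on the spread of other probes too. The single Creb3l1 probe gave 0.71 and 0.72 with Venus and 0.61 and 0.49 with OASIS (log2 fold change -0.17, limma adjusted p = 0.298). Its position on the transcript, and so whether it reads the insert, was not analysed here, and it does not check the labels.

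The label of the cells was set against markers, each read by its brightest tested probe. By the threshold given below, 6.21% of all tested genes were called higher with OASIS and 1.85% lower by this probe. Of 14 podocyte markers, 10 were tested, and Ptpro and Tcf21 were not well above background on any array, while Nphs1 was so on 1 Venus array. Several transcripts that define podocytes in the tissue were thus not detected in these cells. Of the tested podocyte markers, Wt1 (log2 fold change 4.62, limma adjusted p = 0.002) and Cd2ap (1.09, limma adjusted p = 0.008) were higher in the OASIS group by this probe and none was lower. Dimmer probes disagreed, with -0.16 for Wt1, -0.37 and 0.31 for Cd2ap, and a Kirrel probe that was lower (-1.11, limma adjusted p = 0.007). The summed level of a list is the log2 of the summed linear values of its tested genes, so that the brightest genes dominate it. For the podocyte list it was 5.94 and 6.01 with Venus and 5.89 and 6.02 with OASIS. Actn4 alone gave 5.08 and 5.10 with Venus and 4.87 and 4.89 with OASIS, so that dimmer genes such as Wt1 hardly moved the sum. Of 7 neuron markers, 4 were tested and none was called, and Map2, Rbfox3 and Stmn2 were not well above background on any array. Their summed level was 3.49 and 3.41 with Venus and 3.17 and 3.06 with OASIS. Of 7 endothelial markers, 2 were tested and none was called, and Cdh5, Emcn, Tek, Tie1 and Vwf were not well above background on any array. The endothelial sums were -2.33 and -2.43 on the Venus arrays against -2.87 and -2.79 on the OASIS arrays. Of 6 mesangial and pericyte markers, 5 were tested, Cspg4 was higher (1.48, limma adjusted p = 0.025), and Rgs5 was not well above background on any array. The mesangial sums were 6.20 and 6.23 on the Venus arrays against 5.93 and 5.96 on the OASIS arrays. Of 7 tubular markers, 3 were tested, Lrp2 was higher (1.62, limma adjusted p = 0.015), and Cdh1, Slc12a1 and Umod were not well above background on any array. A dimmer Lrp2 probe also passed (1.68, limma adjusted p = 0.014), while its other tested probes had 0.01, -0.10 and -0.16. The tubular sums were 4.44 and 4.89 on the Venus arrays against 4.47 and 5.24 on the OASIS arrays. Of 5 leukocyte markers, 4 were tested and none was called, and Adgre1 was not well above background on any array. The leukocyte sums were 4.18 and 4.08 on the Venus arrays against 3.84 and 3.79 on the OASIS arrays. Single genes carried much of these sums. On the Venus arrays these were Acta2 (6.12 and 6.13), Aqp1 (4.35 and 4.80), Itgam (3.90 and 3.78), Snap25 (3.29 and 3.20) and Esam (-2.54 and -2.62). A dimmer Itgam probe had a Venus mean of -5.54, and the other Snap25 probes were not well above background on any array. The part of these markers in the values that follow was not tested.

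OASIS overexpression went with higher expression of a few guidance genes and lower expression of a few others, and most members stayed within 2-fold. The genes with a probe that rose were the secreted semaphorins Sema3b and Sema3c, the ephrins Efna1 and Efna3, the receptors Plxnd1 and Unc5a, and the Eph receptor gene Epha6. Those with a probe that fell were Sema5a, Sema4g, Efna5, Nrp2, Epha7 and Epha8. For Efna3, Sema5a, Efna5, Nrp2 and Epha7 this probe was not the brightest of the gene. The Epha6 probe was not well above background on the Venus arrays, nor the Epha7 probe on the OASIS arrays. Testing required a signal well above background on both Venus or both OASIS arrays, which held for 91 of the 165 member probes and 54 of the 70 genes. A probe was called when its fold was over 2.0 or under 0.5 and its limma adjusted p, over all 31598 tested probes of the array, was under 0.1. By this rule 7 member probes were higher with OASIS (7.69% of those tested, against 5.89% of all tested probes) and 6 were lower (6.59%, against 2.47%). Each of these 13 probes belongs to a different gene. When each gene was represented by its brightest tested probe, 6 of 54 genes were higher (11.1%, against 6.21% of all 16318 genes) and 2 were lower (3.70%, against 1.85%).

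Without the limit on the fold, 19 member probes had an adjusted p under 0.1 and were higher (20.9%, against 17.0% of all probes), and 18 were lower (19.8%, against 19.7%). Both OASIS arrays lay above both Venus arrays for 32 member probes, and 28.6% of all probes did so. They lay below for 34 member probes, as for 39.4% of all probes, and the arrays of the groups overlapped for the other 25. The median log2 fold change was -0.03 over the member probes and 0.04 over the member genes, beside -0.07 over all tested probes and -0.06 over all tested genes. The members as a whole therefore showed no common direction. For 38 of the 54 genes the 95% confidence interval of the log2 fold change lay within 2-fold in both directions, and for 16 it reached beyond.

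**Figure D1:**
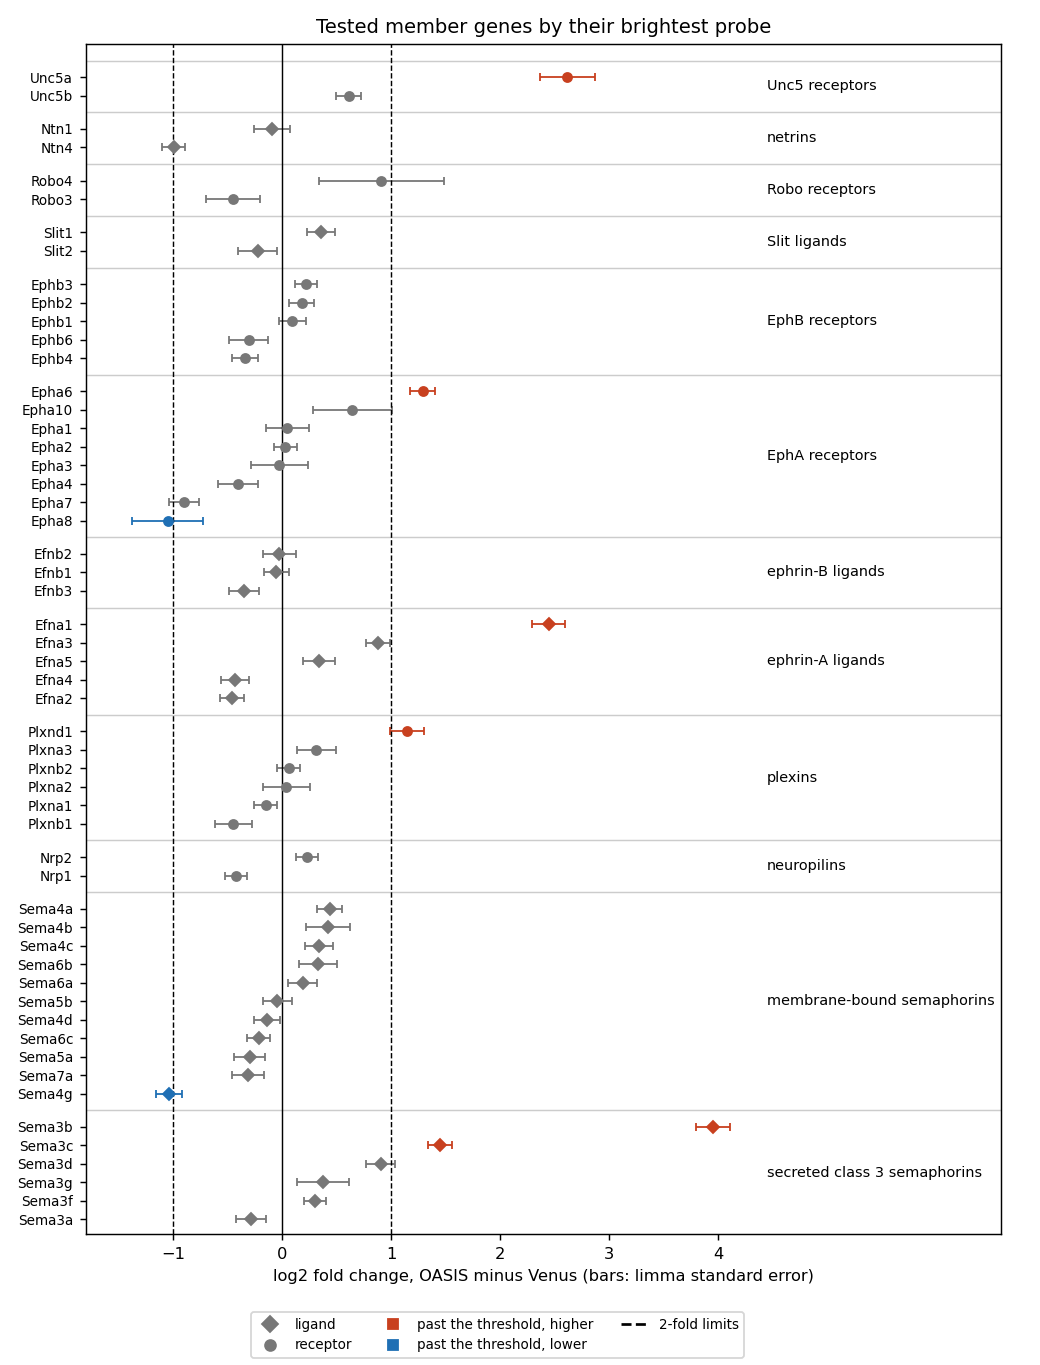
Log2 fold change, OASIS minus Venus, of the 54 tested member genes by their brightest probe (x axis, bars are the limma standard error), grouped by family, with diamonds for ligands, circles for receptors and dashed lines at 2-fold. The 6 genes past the threshold on the right are Sema3b, Unc5a, Efna1, Sema3c, Epha6 and Plxnd1, the 2 on the left are Epha8 and Sema4g, and the Epha6 position is a fitted value for a probe that was not well above background on the Venus arrays.

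The 16 genes without a tested probe were Epha5, Robo1, Robo2, Slit3, Unc5c, Unc5d, Plxna4 and its antisense transcripts Plxna4os1 and Plxna4os2, Plxnb3, Plxnc1, Sema3e, Sema4f, Sema6d, Ntn3 and Ntn5. Of the 74 member probes that were not tested, 65 were not well above background on any array. Expression of these genes was not detectable in both arrays of either group with the probes used. Of the 91 tested probes, 83 were well above background on all 4 arrays. No member spot was saturated or marked as an outlier.

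Among the secreted class 3 semaphorins, which repel or attract cells through complexes of neuropilins and plexins, 2 of 6 tested genes rose and none fell, beside 6.21% and 1.85% of all genes. Sema3b, on chromosome 9 in band qF1, is a ligand of the neuropilins and gave -2.95 and -2.84 with Venus and 1.23 and 0.88 with OASIS. Both OASIS arrays were far above both Venus arrays, and the probe went from below to above the 75th percentile of its array. The log2 fold change was 3.95 (standard error, SE, 0.16, limma adjusted p = 0.002), a 15.5-fold rise, which was the largest of the 91 tested member probes. Only 1 probe, annotated to transcript variant 3, reads Sema3b, so that no second probe repeats the value.

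Sema3c, on chromosome 5 in band qA3, guides vessels and nerves through neuropilins with plexins such as plexin D1. Its brighter probe gave -0.18 and -0.07 with Venus and 1.26 and 1.39 with OASIS, without overlap between the groups. The log2 fold change was 1.45 (SE 0.11, limma adjusted p = 0.005), or 2.73-fold. The dimmer probe moved the same way, from -4.74 and -4.95 to -4.02 and -4.14, but stayed short of the fold limit (0.77, limma adjusted p = 0.020). Sema3d, a relative that neighbours Sema3a on chromosome 5 in the GRCm38.p6 gene order, had -3.39 and -3.44 with Venus and -2.64 and -2.37 with OASIS by its brighter probe. This difference of 0.91 passed the adjusted p (limma, 0.016) and not the fold. Its second probe had a log2 fold change of 1.33 that did not pass (limma adjusted p = 0.214), with OASIS arrays far apart at -3.51 and -5.52. This probe did pass with the replicate number as a block.

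None of the class 3 semaphorins best known in podocytes was called. Sema3a, which acts on the podocyte actin cytoskeleton through neuropilin-1, gave 2.98 and 3.02 with Venus and 2.58 and 2.86 with OASIS by its brightest probe (log2 fold change -0.28, limma adjusted p = 0.192). The other Sema3a probes had -0.31 and 0.31, so that the direction depended on the probe and none passed. Sema3g, a class 3 semaphorin made by podocytes, had -4.17 and -3.99 with Venus and -4.03 and -3.38 with OASIS, and the groups overlapped (0.38, 95% interval -0.26 to 1.01, limma adjusted p = 0.306). Its value rested on single OASIS arrays, at 0.70 without OASIS 1 and 0.053 without OASIS 2. Sema3f lies 3 coding genes from Sema3b on chromosome 9. Its brighter probe gave 3.16 and 3.18 against 3.45 and 3.49, a difference of 0.30 (limma adjusted p = 0.089) whose 95% interval, 0.04 to 0.56, lay within 2-fold, and its other probe had -0.03. Whether the fold changes of these neighbours differ was not tested. The median log2 fold change of the 6 class 3 genes was 0.64, beside -0.06 for all genes.

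**Figure D2:**
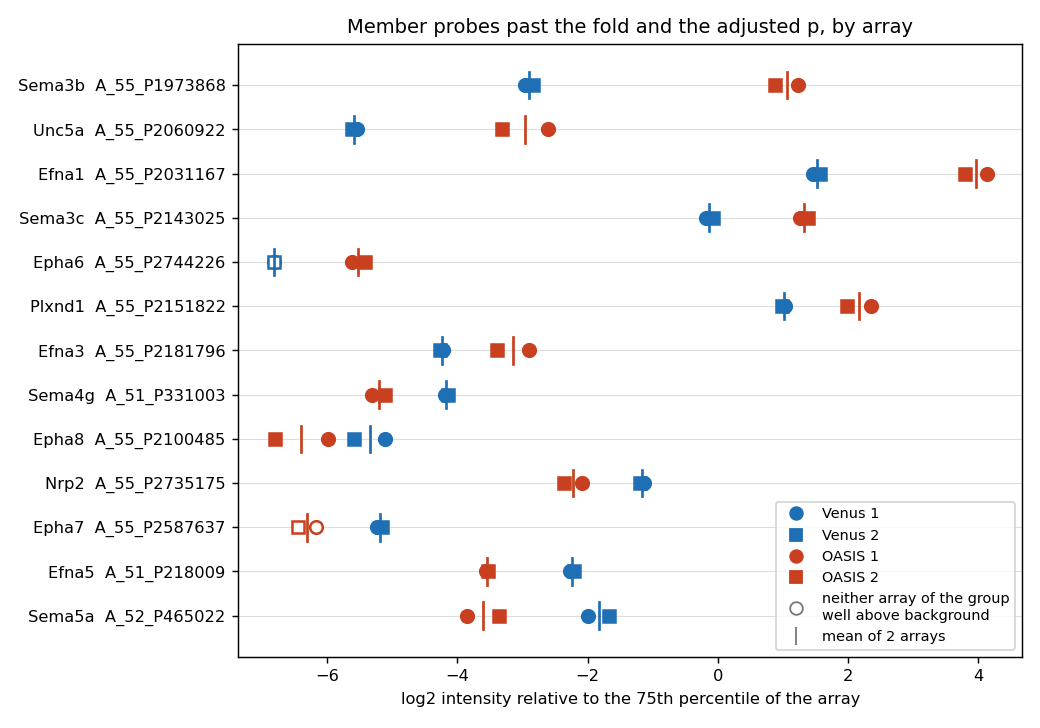
Normalised log2 intensity (x axis) of the 13 called member probes on each array, ordered by log2 fold change, with circles and squares for samples 1 and 2, vertical bars for the mean of 2 arrays, and open symbols where neither array of the group was well above background. These probes were chosen by the same values, so that the separation of their Venus and OASIS points adds no support. Sema3b moves from about -2.90 to 1.06 between the group means.

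Among the membrane-bound semaphorins, 20 probes for 11 genes were tested, and 2 probes fell and none rose, beside 2.47% and 5.89% of all tested probes. Sema5a, on chromosome 15 in band qB3.1, carries thrombospondin repeats and can act as a cue of either sign. Its probe A_52_P465022 gave -1.99 and -1.67 with Venus and -3.85 and -3.37 with OASIS. The groups were separate, and the log2 fold change was -1.78 (SE 0.21, limma adjusted p = 0.011), or 3.43-fold lower. A second probe, A_55_P2014224, annotated to the same RefSeq transcript, went from -0.18 and 0.29 to -0.28 and 0.61. There the groups overlapped and the log2 fold change was 0.10 (95% interval -0.81 to 1.01). The brightest probe and the remaining tested one, both annotated to Ensembl transcripts, had -0.30 (limma adjusted p = 0.193) and -0.12 (limma adjusted p = 0.481). The fall of Sema5a was therefore seen in 1 of 4 tested probes.

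Sema4g, on chromosome 19 in band qC3, is a transmembrane semaphorin. Its tested probe gave -4.19 and -4.15 with Venus and -5.30 and -5.11 with OASIS, with a log2 fold change of -1.04 (SE 0.12, limma adjusted p = 0.010), just past the fold limit. The other of its 2 probes was not well above background on any array. Sema4c is a ligand of plexin B2. Its brightest probe gave 5.96 and 6.16 against 6.49 and 6.33, a difference of 0.34 (limma adjusted p = 0.119). A dimmer Sema4c probe, annotated to the same transcript variant 1, went from -1.64 and -1.77 to -0.70 and -0.88, a difference of 0.92 (limma adjusted p = 0.013) that was short of the fold limit. The other 8 membrane-bound semaphorin genes had log2 fold changes from -0.31 for Sema7a to 0.44 for Sema4a by their brightest probe.

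The neuropilins, the co-receptors that hold class 3 semaphorins and vascular endothelial growth factor, had no gene called by its brightest probe. All 6 tested Nrp1 probes had a negative log2 fold change, and 4 of them had an adjusted p under 0.1. Over all tested probes, 19.7% were lower at that adjusted p. The brightest gave 4.73 and 4.82 with Venus and 4.36 and 4.35 with OASIS, a difference of -0.42 (SE 0.10, limma adjusted p = 0.047). The probe with the largest difference, A_52_P371237, went from 0.67 and 0.82 to -0.15 and -0.16 (-0.90, limma adjusted p = 0.011). On all 4 arrays Nrp1 was thus lower by less than 2-fold, with probes that differed in size and not in sign, and without OASIS 2 probe A_52_P174942 was past the fold limit. Probes of this kind that are annotated to 1 gene share their RNA and are not replicates.

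Nrp2, on chromosome 1 in band qC2, is read by 3 probes annotated to different transcript variants. The probe for variant 6 gave -1.13 and -1.20 with Venus and -2.09 and -2.36 with OASIS, with a log2 fold change of -1.06 (SE 0.13, limma adjusted p = 0.012). The brightest probe, for variant 5, gave 5.10 and 5.19 against 5.39 and 5.37, a difference of 0.23 in the opposite direction (limma adjusted p = 0.164). The probe for variant 1 had -0.24 (limma adjusted p = 0.151). Only the variant 6 probe passed, and whether its lower value belongs to that variant was not tested.

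The plexins transduce semaphorin binding through a domain that acts on small GTPases, and 1 of 6 tested plexin genes rose, beside 6.21% of all genes. Plxnd1, on chromosome 6 in band qE3, is the receptor of Sema3e and, with neuropilins, of Sema3c. Its brighter probe gave 1.03 and 0.99 with Venus and 2.35 and 1.98 with OASIS, without overlap. The log2 fold change was 1.15 (SE 0.16, limma adjusted p = 0.014), or 2.22-fold. The dimmer probe went the same way, from -2.76 and -2.75 to -1.88 and -1.94 (0.85, limma adjusted p = 0.010). Sema3e itself had no tested probe. Plxnb2, the receptor of Sema4c, gave 5.58 and 5.69 against 5.72 and 5.67. The groups overlapped, and the 95% interval of its log2 fold change of 0.06 was -0.21 to 0.34. Plxna1, a partner of neuropilin-1 for Sema3a, had means of 2.95 (Venus) and 2.80 (OASIS), a difference of -0.15 (95% interval -0.43 to 0.13). The other tested plexin genes ranged from -0.45 for Plxnb1 to 0.32 for Plxna3, and none passed the adjusted p.

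Ephrin-A ligands, which are held on the membrane by a lipid anchor and bind EphA receptors, moved in both directions. All 9 of their probes were tested, for 5 genes. Of these probes 5 had an adjusted p under 0.1 and were higher and 3 were lower, beside 17.0% and 19.7% of all tested probes. Both OASIS arrays lay above both Venus arrays for 6 of the 9, beside 28.6% of all tested probes. They lay below for 3, beside 39.4%. Efna3 alone gave 3 of the 5 probes that were higher at the adjusted p, and probes of 1 gene are not replicates. By the brightest probe, 1 of the 5 genes was called higher and none lower, beside 6.21% and 1.85% of all genes. The log2 fold change by that probe was positive for 3 genes and negative for 2. Efna1, on chromosome 3 in band qF1, encodes a ligand of EphA2. It gave 1.47 and 1.57 with Venus and 4.13 and 3.80 with OASIS, well apart. The log2 fold change was 2.45 (SE 0.15, limma adjusted p = 0.004), or 5.45-fold.

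Efna3 and Efna4 follow Efna1 directly in the GRCm38.p6 gene order. The dimmest of 3 Efna3 probes gave -4.22 and -4.26 with Venus and -2.90 and -3.39 with OASIS, and it rose by 1.10 (SE 0.19, limma adjusted p = 0.022). The brightest Efna3 probe went from -1.46 and -1.57 to -0.57 and -0.69, a difference of 0.88 (limma adjusted p = 0.012) that fell short of the fold limit, and the third probe had 0.34 (limma adjusted p = 0.071). All Efna3 probes were higher, by amounts on both sides of 2-fold. Efna4 had means of -0.98 (Venus) and -1.41 (OASIS), a difference of -0.43 (limma adjusted p = 0.074). The 3 neighbouring ephrin genes thus had log2 fold changes of both signs.

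Efna5, on chromosome 17 in band qE1.1, was read by 3 probes that disagreed by transcript variant. The probe for variant 2 gave -2.27 and -2.21 with Venus and -3.56 and -3.53 with OASIS, and it fell by 1.30 on the log2 scale (SE 0.10, limma adjusted p = 0.005). The probes for variant 1 went the other way. The brightest went from 0.36 and 0.60 to 0.71 and 0.93 (0.34, limma adjusted p = 0.153), and the other from 0.27 and 0.43 to 0.81 and 1.02 (0.57, limma adjusted p = 0.043). Of the variant 1 differences neither reached 2-fold. Efna2 had a log2 fold change of -0.46 (limma adjusted p = 0.048).

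EphA receptors are the tyrosine kinases that bind ephrin-A ligands, and 1 of their 10 tested probes rose and 2 fell, beside 5.89% and 2.47% of all tested probes. Epha6, on chromosome 16 in band qC1.3, is read by 4 probes, of which 3 were not well above background on any array. The tested probe gave -6.82 and -6.81 on the Venus arrays, where it was not well above background, and -5.62 and -5.42 on the OASIS arrays, where it was. Its fitted log2 fold change was 1.29 (limma adjusted p = 0.007), and it was at least 1.52-fold higher with OASIS. This bound takes, for each Venus array, the dimmest value still well above background (or the probe's own, if higher), and it lies below the fold limit, so that the call rests on the fitted value. Epha7, on chromosome 4 in band qA4, had -5.23 and -5.15 with Venus and -6.16 and -6.44 with OASIS by a probe for transcript variant 2. Neither OASIS array was well above background, and by the same kind of bound it was at least 1.93-fold lower with OASIS. This too lies short of the fold limit, so that the call rests on the fitted log2 fold change of -1.11 (limma adjusted p = 0.011).

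The brightest Epha7 probe, for variant 1, gave -1.70 and -1.47 against -2.58 and -2.39, a difference of -0.90 (SE 0.14, limma adjusted p = 0.018). Another probe for variant 2 had -0.64 (limma adjusted p = 0.063). All 3 tested Epha7 probes were therefore lower at the adjusted p, the called one by a fitted value close to background. Of all tested probes, 19.7% were lower at that adjusted p. Epha8, on the same chromosome in band qD3, gave -5.10 and -5.59 with Venus and -5.99 and -6.80 with OASIS. The groups were separated by 0.40, less than the difference between the OASIS arrays, only 1 OASIS array was well above background, and the log2 fold change of -1.05 had a SE of 0.33 (limma adjusted p = 0.081). Epha2 is the receptor of ephrin-A1, whose gene rose. It gave 5.65 and 5.58 with Venus and 5.70 and 5.59 with OASIS, so that the groups overlapped, and the 95% interval of its log2 fold change of 0.03 was -0.25 to 0.31. Epha4, which binds ephrins of both classes, had -0.40 (limma adjusted p = 0.172). Epha1, Epha3 and Epha10 had 0.05, -0.02 and 0.65, and none passed the adjusted p.

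The B class of the Eph system stayed within 2-fold. None of 10 EphB probes and none of 3 ephrin-B probes was called, beside 5.89% of all tested probes higher and 2.47% lower. With so few probes, this is near the share over all probes. The 95% intervals of all 5 EphB genes and all 3 ephrin-B genes lay within 2-fold by their brightest probe. Efnb1, an ephrin of the slit diaphragm, gave 2.99 and 3.02 with Venus and 2.86 and 3.04 with OASIS (log2 fold change -0.05, 95% interval -0.35 to 0.25). Efnb2 gave 3.52 and 3.68 against 3.42 and 3.74, and the groups overlapped (-0.02, 95% interval -0.42 to 0.38). Ephb4, the receptor that pairs with ephrin-B2 in vessels, had -0.58 and -0.58 against -1.02 and -0.81 by its brightest probe, a difference of -0.34 (limma adjusted p = 0.104). Its other probes had -0.43 (limma adjusted p = 0.086) and -0.59 (limma adjusted p = 0.027), so that 2 of the 3 passed the adjusted p without reaching 2-fold. Among all tested probes, 19.7% were lower at that adjusted p. Ephb3 gave 5.21 and 5.27 against 5.49 and 5.43, a difference of 0.22 (limma adjusted p = 0.173). By their brightest probes, Ephb1, Ephb2 and Ephb6 had 0.09, 0.18 and -0.31, and Efnb3 had -0.35, none of which passed the adjusted p.

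Of the Unc5 receptors, which bind netrins and signal repulsion or, without ligand, cell death, 1 of 2 tested genes rose, beside 6.21% of all genes. This was Unc5a, on chromosome 13 in band qB1, which gave -5.54 and -5.62 with Venus and -2.61 and -3.32 with OASIS. Both OASIS arrays stood well above both Venus arrays, although they differed from each other by 0.71. The log2 fold change was 2.62 (SE 0.25, limma adjusted p = 0.007), or 6.14-fold. With normexp background correction, which lifts dim signals, it was 1.11 and still past the threshold. Unc5b, the Unc5 receptor of endothelial and epithelial cells, gave 4.98 and 4.93 against 5.66 and 5.47 by its brighter probe (0.61, limma adjusted p = 0.028) and 3.54 and 3.58 against 4.34 and 3.93 by the other (0.58, limma adjusted p = 0.071). Both Unc5b probes were higher at the adjusted p and short of 2-fold, and 17.0% of all tested probes were higher at that adjusted p. Unc5c and Unc5d were not well above background on any array.

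Neither of the 2 tested netrin probes was called, beside 5.89% of all tested probes higher and 2.47% lower. Ntn4, a netrin of basement membranes, came closest, with -0.14 and -0.10 with Venus and -1.17 and -1.05 with OASIS. The log2 fold change of -0.99 (SE 0.11, limma adjusted p = 0.009) missed the fold limit, and scaling the arrays to their median instead of the 75th percentile put it past that limit at -1.02. Ntn1, the classical ligand of Unc5 receptors and Dcc, had -0.09 (95% interval -0.52 to 0.34).

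Of the Slit and Robo genes, Slit1, Slit2, Robo3 and Robo4 had a tested probe. None was called, beside 6.21% of all genes higher and 1.85% lower. Slit2, a secreted ligand of the Robo receptors, is read by 7 probes, of which 1 was tested. It gave -0.70 and -0.79 against -1.19 and -0.75, and the groups overlapped (log2 fold change -0.22, 95% interval -0.69 to 0.25). None of the 8 probes of Robo2, the Robo receptor of podocytes, was tested, and 6 of them were not well above background on any array. Robo3 had -0.45 (limma adjusted p = 0.242) by its brighter probe. Robo4, the endothelial member, had 0.91 (limma adjusted p = 0.299) with Venus arrays as far apart as -7.47 and -5.76. Slit1 had 0.36 (limma adjusted p = 0.109).

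Set side by side by how they reach the cell, the secreted ligands had 2 of 10 tested genes higher and none lower by the brightest probe, with a median log2 fold change of 0.33, and the membrane-anchored ligands had 1 of 19 higher and 1 lower, with a median of -0.04. The Eph receptors had 1 of 13 higher and 1 lower (median 0.03), and the plexins, neuropilins, Robo and Unc5 receptors together had 2 of 12 higher and none lower (median 0.15). Beside these stand 6.21% of all genes higher and 1.85% lower. With so few genes called in each group, the groups cannot be ranked.

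The gene count depended on which probe was taken, because 23 member genes had more than 1 tested probe. The log2 fold changes of the probes of a gene spanned 1.88 for Sema5a, 1.87 for Efna5 and 1.29 for Nrp2, and in these 3 genes the called probe and the brightest one differed in call. Efna3 and Epha7 also had a called probe that was not the brightest, though all of their probes kept the same sign. The 5 genes account for the difference between 13 genes called by any probe and 8 called by the brightest. At the other end, the 2 probes of Plxna2 differed by 0.0012 and those of Unc5b by 0.04.

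**Figure D3:**
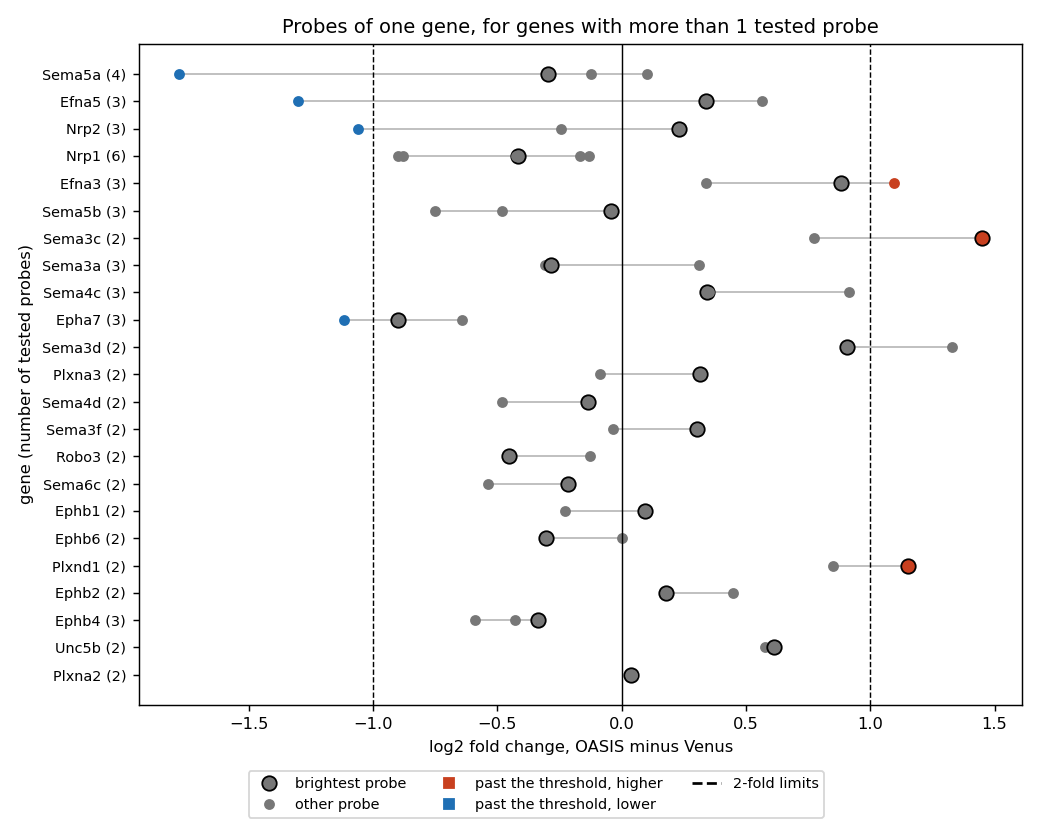
Log2 fold change, OASIS minus Venus (x axis), of every tested probe for the 23 member genes with more than 1, ordered by the span between probes, with larger outlined circles for the brightest probe, colour for probes past the threshold and dashed lines at 2-fold. Sema5a, Efna5 and Nrp2 each have 1 probe below the lower limit while their brightest probe lies between -0.30 and 0.34.

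The partners and effectors of these receptors were examined in lists of genes that are not members, each gene by its brightest probe. Of 18 co-receptors and other partners at the membrane, 13 were tested, and Flrt3, Nrcam and Rgmb were higher and none was lower, with a median log2 fold change of 0.15. Beside these, 6.21% of all tested genes were higher and 1.85% were lower. Flrt3, an adhesion protein that binds Unc5 receptors, went from -0.85 and -0.76 to 0.39 and 0.48 (1.24, limma adjusted p = 0.006). Nrcam, an adhesion protein that joins neuropilin-2 in semaphorin receptors, went from -3.78 and -3.29 to -2.05 and -1.98 (1.53, limma adjusted p = 0.012). Rgmb, a ligand of neogenin and a co-receptor for bone morphogenetic proteins, went from -3.75 and -3.44 to -2.34 and -2.16 (1.34, limma adjusted p = 0.010). Its other tested probes did not pass, with 0.37 (limma adjusted p = 0.200) and 1.10 (limma adjusted p = 0.114). The other Nrcam probes were not well above background on any array. By the brightest probe the OASIS arrays lay above the Venus arrays in all 3 genes, as for 28.6% of all tested probes. These genes were chosen by the same values, so that this adds no support. A dimmer probe of Adam10, a protease that sheds ephrins, was lower (-1.28, limma adjusted p = 0.007), while its brightest probe had 0.15.

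Downstream of the receptors, few genes were called by the brightest probe. None of 18 plexin and collapsin response effectors (median -0.05) and none of 11 Robo effectors (median 0.25) passed by it. Of 11 tested Eph and ephrin effectors of 12 listed (median -0.22), Ngef was higher, with -4.86 and -4.95 with Venus and -1.64 and -1.75 with OASIS (log2 fold change 3.21, standard error 0.11, limma adjusted p = 0.001). Ngef encodes ephexin-1, a guanine nucleotide exchange factor that EphA receptors regulate. Of 6 netrin effectors (median -0.12), Maged1, which binds Unc5 receptors, was higher, going from 2.66 and 2.72 to 4.60 and 4.47 (1.84, limma adjusted p = 0.003). Dimmer probes that were called against a brightest probe without a call were those of Mical2 (-1.38, limma adjusted p = 0.012), Ablim1 (-1.09, limma adjusted p = 0.015) and Sipa1l1 (1.07, limma adjusted p = 0.029). Over all tested genes, 6.21% were higher and 1.85% lower, with a median of -0.06.

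**Figure D4:**
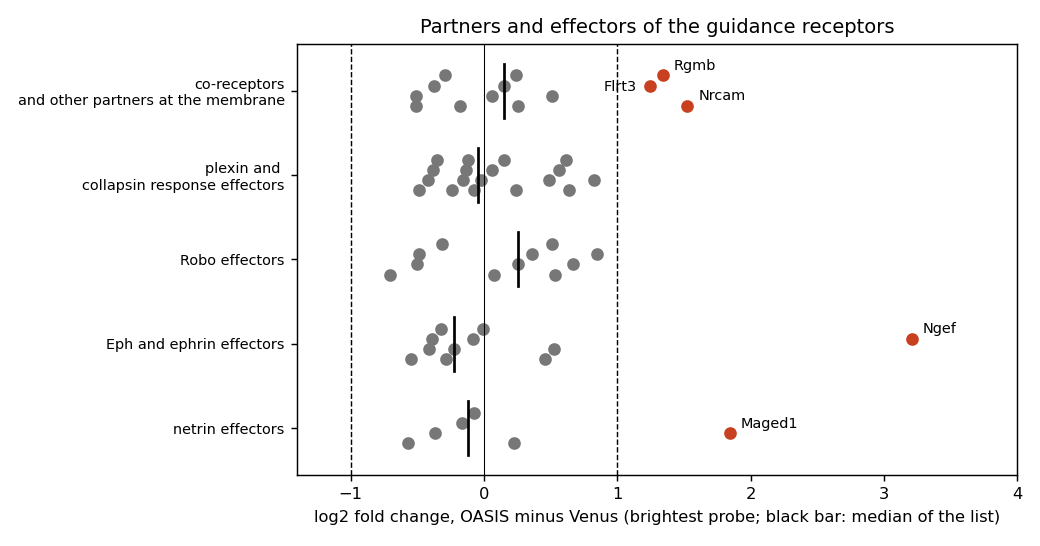
Log2 fold change, OASIS minus Venus (x axis), of the tested genes of 5 lists of partners and effectors of the guidance receptors by their brightest probe, with the median of each list as a black bar and dashed lines at 2-fold. Flrt3, Nrcam, Rgmb, Ngef and Maged1 lie past the upper limit and are the genes called by this probe, and no gene lies past the lower limit.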

How the data were processed

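The authors deposited, for each array, the intensity of every spot as Agilent Feature Extraction 12.1.0.3 had corrected it for background, and a series-wide file with the same intensity scaled by a factor per array (0.663 to 0.698), a detection score per spot, gene symbols and chromosome bands. Spots well above background numbered 33938 to 34418 of 59305 per array. Control and outlier spots were left out, the log2 intensity of each array was centred on its 75th percentile, and repeated spots were averaged by probe. Detection required at least 0.5 of the spots of a probe to be well above background. Groups were compared with limma 3.58.1 (R 4.3.3, with the data.table package, version 1.17.8), lmFit and eBayes without covariates, and Benjamini-Hochberg adjustment over 31598 tested probes. The threshold is that of the study's methods, which name no test for the arrays and give Student's test or a rank test for comparisons of 2 groups in general. The former, called the methods' t-test, was an alternative.

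The members, the gene lists (6 of cell type markers, 5 of partners and effectors) and the tests were chosen with earlier results of these data known. The genes named are those with a called probe, the 10 with the highest mean on the Venus arrays, and 13 known in podocytes, and other members only as ranges or beside them. Alternatives covered scaling, background correction, the source of the values, filters, outlier spots, the variance model, the test, the threshold, the replicate number and each array, and a bound in place of the fitted fold was added after the values had been seen. Bands come from the deposited annotation. Of the 70 symbols, 69 were found in the RefSeq gene table of GRCm38.p6, which was used for gene order only, since the array is annotated to another build, so that no coordinates are given. Values of some listed genes are not reported here.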

Additional observations from a re-analysis of the deposited data

How the results depend on the processing

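Calls of member probes numbered 13, and 6 with normexp background correction and 5 with the methods' t-test after adjustment. Probes higher numbered 7, and 4 with that t-test. Probes lower numbered 6, and 1 under each of both. Genes called by the brightest probe numbered 8, with 5 under normexp, 4 under the t-test and 13 when any probe counted. Genes lower numbered 2, with 0 under normexp and the t-test, 1 without the filter on dim probes, 1 with the filter on all 4 arrays, 1 at an adjusted p under 0.05 and 6 when any probe counted. At an unadjusted p under 0.05 with the same fold, 12 member probes passed the t-test and 6 the limma fit under normexp. Over all probes, normexp left 3.08% higher and 0.791% lower, and the t-test 1.74% and 0.554%. Normexp lost Efna5, Sema4g, Epha8, Efna3, Epha7, Nrp2 and Epha6, and the t-test kept Sema3b, Sema3c, Efna1, Efna5 and Epha6. The cause was not tested.

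Leaving out 1 array gave 12 to 15 probe calls and 1 to 3 genes lower. Epha8 lost its call without Venus 1, Venus 2 or OASIS 2, Sema4g, Plxnd1 and Efna3 without OASIS 1, and Epha7 and Nrp2 without OASIS 2. Probes gained were those of Ntn4, Epha7 (the brightest) and Epha10 without Venus 1, Robo4 without Venus 2, Sema5b and Sema3d without OASIS 1, and Sema4c, Ntn4, Nrp1 and Sema3d without OASIS 2. The sign turned only for values near 0, where the range was -0.14 to 0.036 for Efnb1, -0.18 to 0.13 for Efnb2, -0.025 to 0.086 for Epha2 and -0.44 to 0.0040 for Slit2. With a bound in place of the fitted fold, Epha6 and Epha7 dropped out and 11 probe calls and 7 gene calls were left. With the replicate block there were 14 probe calls, 8 higher and 6 lower, with a Sema3d probe gained, and 8 gene calls. The labels give no shared batch for a number, and samples of the same number had correlated deviations (0.26), which with 2 pairs does not settle a pairing. Of 360 values of named members under alternatives on all 4 arrays, 341 kept their direction and side of the threshold, 17 lost the call, 2 gained it and none reversed. The filters, the variance model, the test, the threshold and the replicate block leave the log2 fold change as it was, so that there the sign could not turn. The called probes of Epha6, Epha7 and Epha8, dropped by the filter on all 4 arrays, have no value under that filter among the 360. Of 132 with 1 array left out, 115 kept both, 8 lost the call, 3 gained it and 6 reversed. Dim probes such as Epha6, Epha7 and Epha8 lie close to background, which limits what their folds can show.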

Other observations

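The deposited annotation also assigns genes to the axon guidance pathway, a grouping taken up after the values had been seen. Of its 117 genes that are not members, 104 were tested, 6 were higher (5.77%, beside 6.21% of all genes) and 3 were lower (2.88%, beside 1.85%), with a median log2 fold change of -0.08. Those higher were Bmp7 (3.65), Ngef, Pik3cd (1.72), Pdk1 (1.32), Gnai1 (1.22) and Lrrc4, whose signal on the Venus arrays was not well above background and which was at least 2.81-fold higher. Those lower were Camk2b (-1.59), Nfatc2 (-1.22) and Trpc1 (-1.13). Bmp7 encodes a bone morphogenetic protein and Trpc1 a cation channel subunit.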
